A study of Arabidopsis thaliana with 48 samples.

Results

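The subject is 10 Polycomb group genes of Arabidopsis thaliana, taken by their locus identifiers from a count table of 27206 genes: CLF (AT2G23380), SWN (AT4G02020), EMF2 (AT5G51230), VRN2 (AT4G16845), FIE (AT3G20740), MSI1 (AT5G58230), LHP1 (AT5G17690), EMF1 (AT5G11530), VRN1 (AT3G18990) and VIN3 (AT5G57380). All 10 were found. The rule that picks them names loci and holds no measured value, but they were proposed with earlier results of these data known. The study sequenced RNA of dissected apices, a preparation rich in shoot meristem, from 4 genotypes sown 3 to 6 weeks earlier and sampled weekly. It asked which genes differ between the genotypes along a short-day time course. All plants grew in days of 8 h light and 16 h dark at 21 °C, so no group received a cold treatment. Each library pooled 15 apices, and 3 independent biological replicates were labelled for each genotype and week.

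The genotypes were the wild type (WT, labelled col), the chr4-2 mutant, the quintuple mutant svp flc ft tsf soc1 and the line qem2. CHR4 is a CHD-type chromatin remodeller. By its label the quintuple mutant carries mutations in the flowering regulators SVP, FLC, FT, TSF and SOC1 together. The sources used here do not state the lesion of qem2. From outside knowledge of the study it is a chr4 mutant in the quintuple background, and the quintuple is taken as its control on that ground, with the same 5 mutations. The quintuple mutant thus stood in 2 of the comparisons, against WT and as the control of qem2, and WT was the control of both chr4-2 and the quintuple. Comparisons that share a control are not independent of each other.

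Polycomb group proteins keep genes silent through marks on histones. Polycomb repressive complex 2 (PRC2) places the mark H3K27me3 through a histone methyltransferase that acts with a zinc-finger subunit and a pair of WD40 proteins, and PRC1 proteins and other readers act on the marked chromatin. In the shoot apex of Arabidopsis the system is known for holding meristem, flowering-time and floral organ genes silent outside their proper time and place.

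Libraries held 2.91 M to 19.7 M assigned reads, with a median of 14.2 M. The shallowest was qem2 at 6 weeks, replicate 1, and the next held 6.36 M. The column labelled qem2 at 5 weeks, replicate 3 held the same count as that of quintuple at 5 weeks, replicate 3, for all 27206 genes; without it there were 47 libraries and 2 for that group. Levels are given as CPM, the reads of a gene per 1000000 assigned reads after TMM scaling. In chr4-2 the CHR4 transcript had group means of 76.0 to 108 CPM against 171 to 232 CPM in WT, and in qem2 it had 251 to 311 CPM against 178 to 266 CPM in the quintuple mutant, so the count gave no check of a chr4 lesion in qem2. In the quintuple mutant SVP was at 35.9 to 58.1 CPM against 79.7 to 136 CPM in WT, and FLC at 4.60 to 10.5 CPM against 3.48 to 19.5 CPM, above WT at 6 weeks. SOC1 was higher than in WT in every week, at 5.28 to 10.3 CPM against 1.65 to 6.74 CPM. FT had 0 to 5 reads a group in the quintuple mutant and 0 in WT, and TSF had 0 to 1 and 0 to 6. The lesions of these alleles are not given in the sources used here, and counts over a whole gene check them only in part. All 5 shoot meristem markers (STM, KNAT1, CLV3, WUS, FD) had reads in every group, with summed group means of 94.8 to 303 CPM. Leaf mesophyll markers summed to 2173 to 6622 CPM, so leaf RNA was also present, and flower organ markers summed to 0.693 to 7.53 CPM. In such bulk samples fewer cells of a type and less RNA per cell cannot be told apart. At 4 weeks the libraries numbered 1 of chr4-2 and qem2 stood apart from their partners in several members, as given below. In the quintuple mutant the library numbered 1 did so in CLF. There the library numbered 3 was the one apart in LHP1, SWN and EMF1.

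Of the 10 members, 9 passed the filter on low counts and were tested among 19566 genes; VIN3 did not. Members are compared with each other in CPM per kilobase of exon, averaged over the 47 libraries. MSI1, a WD40 protein that binds histones in PRC2 and also in chromatin assembly, was the highest at 55.3 ± 5.42 (SD). FIE, the other WD40 subunit, followed at 22.8 ± 2.38, then the zinc-finger subunit EMF2 at 22.5 ± 1.16 and the methyltransferase CLF at 21.3 ± 2.57. The H3K27me3 reader LHP1 stood at 20.9 ± 3.93, the zinc-finger subunit VRN2 at 20.8 ± 1.49, the DNA-binding B3 protein VRN1 at 19.6 ± 1.42 and the methyltransferase SWN at 19.1 ± 2.30. Neighbours in this order from FIE to SWN differed by less than the larger of their SDs. EMF1, a plant protein tied to PRC1 functions, was lower at 11.5 ± 2.00, and VIN3 was at 0.0755 ± 0.0807. By CPM the 9 tested members lay above 64.8% to 86.7% of tested genes, with fewest reads for FIE in the shallowest library, at 99.

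The stretch of 250 bases before the annotated start is shown for LHP1, which rose most from 3 to 4 weeks, for FIE and MSI1, which fell, and for SWN, which holds a match to a motif. The sequences are from the RefSeq genome of Arabidopsis, assembly TAIR10.1, written 5′ to 3′ in the direction of the gene, and capitals mark the match. LHP1 lies on the minus strand with this stretch at chr5:5829764-5830013, FIE on the minus strand at chr3:7252453-7252702, MSI1 on the plus strand at chr5:23555762-23556011 and SWN on the plus strand at chr4:886330-886579.
LHP1: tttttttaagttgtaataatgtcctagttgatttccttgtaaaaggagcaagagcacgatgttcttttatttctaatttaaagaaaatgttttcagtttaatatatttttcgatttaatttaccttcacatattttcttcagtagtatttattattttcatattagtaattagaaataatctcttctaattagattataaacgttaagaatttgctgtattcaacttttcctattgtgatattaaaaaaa
FIE: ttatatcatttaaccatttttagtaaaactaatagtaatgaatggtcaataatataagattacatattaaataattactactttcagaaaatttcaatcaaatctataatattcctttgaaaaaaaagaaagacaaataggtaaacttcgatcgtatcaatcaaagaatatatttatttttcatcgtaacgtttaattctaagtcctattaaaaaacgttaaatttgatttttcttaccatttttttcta
MSI1: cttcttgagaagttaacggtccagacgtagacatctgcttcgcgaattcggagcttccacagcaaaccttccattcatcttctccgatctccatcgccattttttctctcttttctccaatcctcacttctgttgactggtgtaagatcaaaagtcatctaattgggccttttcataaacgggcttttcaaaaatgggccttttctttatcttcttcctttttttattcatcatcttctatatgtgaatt
SWN: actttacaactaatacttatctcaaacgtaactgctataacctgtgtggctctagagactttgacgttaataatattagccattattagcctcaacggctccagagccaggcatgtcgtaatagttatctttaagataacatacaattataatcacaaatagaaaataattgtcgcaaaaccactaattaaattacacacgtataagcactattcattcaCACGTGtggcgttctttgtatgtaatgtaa
Both strands of these stretches were searched for AAACCCTA (the telobox core) and GAGAGAGA, both known from plant Polycomb response elements, for the G-box CACGTG, and for the E2F-type letters TTTCCCGC and TTTGGCGC. The only matches in the 10 members were the G-box in SWN, 30 to 25 bases before the start, and in VIN3, 84 to 79 bases before it. Over 27443 genes the share of such stretches with a match was 4.49% for AAACCCTA, 4.91% for GAGAGAGA, 6.49% for CACGTG, 0.619% for TTTCCCGC and 0.361% for TTTGGCGC. A match describes letters and not a bound site.

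Over the 16 groups, which differ in genotype as well as in week, some members varied more than others. The highest group mean was 1.78 times the lowest for LHP1, 1.71 times for EMF1, 1.47 for CLF, 1.43 for SWN, 1.36 for FIE and 1.28 for MSI1. VRN1, VRN2 and EMF2 had ratios of 1.16, 1.14 and 1.11. The median of this ratio was 1.78 over all tested genes and 1.53 over the 7824 tested genes of at least 30 CPM.

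**Figure D1:**
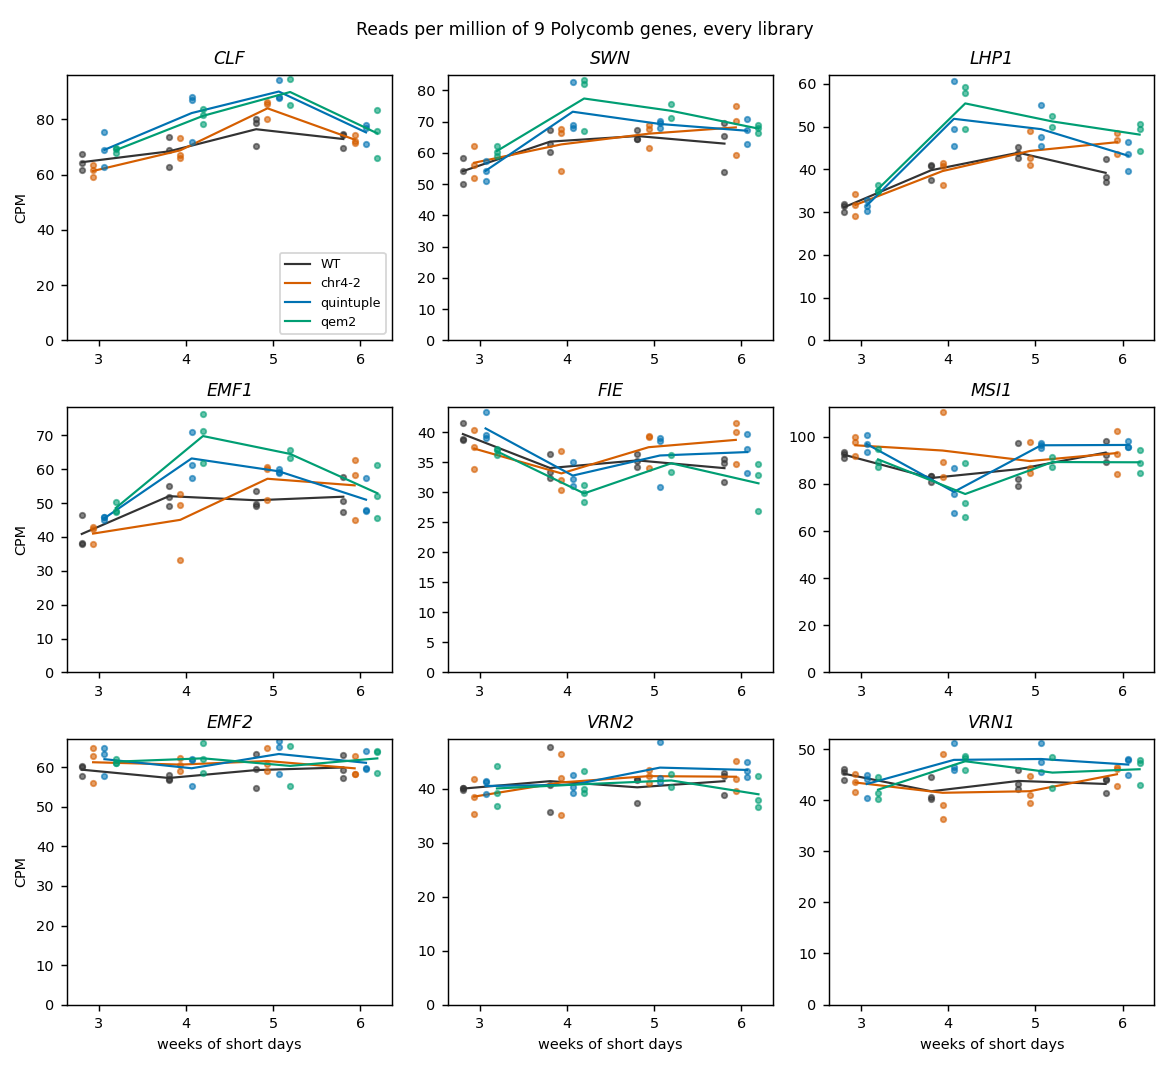
CPM (y axes, starting at 0) of the 9 tested members against weeks of short days, with a point for each of 47 libraries and lines through the group means of each genotype. LHP1, EMF1 and SWN were lowest at 3 weeks in each genotype, the group means of FIE and MSI1 were lower at 4 than at 3 weeks in each genotype, and EMF2 and VRN2 stayed nearly level.

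From 3 to 4 weeks the members changed about as often as other genes. Averaged over the 4 genotypes, LHP1, EMF1, SWN and CLF rose and FIE and MSI1 fell, so that 6 of 9 members changed. Of all tested genes 66.9% changed, 35.5% upward and 31.4% downward. The members' median log2 fold change was 0.04, against 0.03 over all tested genes, and their median absolute change was 0.20 against 0.31. The step in each single genotype was chosen for testing after the data were seen. Whether the libraries of 2 groups overlap is given below for members alone. The share of all tested genes without such overlap was not counted, so a lack of overlap marks no member out.

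LHP1, the chromodomain protein that reads H3K27me3, rose most. In WT it had 31.5, 30.0 and 31.9 CPM at 3 weeks and 37.5, 40.8 and 41.1 CPM at 4 weeks. In chr4-2 it had 34.3, 29.1 and 31.6 CPM and then 36.4, 41.6 and 40.8 CPM. In these genotypes every 4-week library lay above every 3-week library. For the quintuple mutant LHP1 went from 31.5, 30.3 and 32.7 CPM to 45.4, 49.4 and 60.6 CPM. In qem2 it went from 35.0, 34.8 and 36.4 CPM to 49.3, 59.2 and 57.7 CPM. The ranges of the weeks did not overlap in these genotypes either. The mean log2 fold change over genotypes was 0.51 (SE 0.05, adjusted p = 1.04e-11, edgeR's quasi-likelihood test with Benjamini-Hochberg adjustment). It was 0.35 in WT (adjusted p = 0.00397), 0.33 in chr4-2 (0.00855), 0.72 in the quintuple mutant (2.79e-07) and 0.65 in qem2 (1.46e-06). The rise in chr4-2 was not called without chr4-2 at 3 weeks, replicate 2 (adjusted p = 0.0616), or when only the libraries of that step were fitted (0.0974).

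EMF1 rose by a mean log2 fold change of 0.37 (SE 0.06, adjusted p = 3.18e-06). Its 3-week values were 37.9, 38.2 and 46.6 CPM in WT and 45.8, 45.0 and 45.8 CPM in the quintuple mutant. The 4-week values were 54.9, 49.3 and 51.9 CPM in WT and 61.1, 57.3 and 71.1 CPM in the quintuple mutant, without overlap with 3 weeks. In qem2 EMF1 went from 47.8, 47.4 and 50.4 CPM to 61.8, 76.3 and 71.3 CPM. In chr4-2 the weeks overlapped, from 42.4, 42.8 and 37.8 CPM to 33.2, 52.6 and 49.4 CPM, with replicate 1 at 4 weeks below all 3 earlier libraries. The rise was called in WT (log2 0.35, adjusted p = 0.0309), in the quintuple mutant (0.47, 0.00226) and in qem2 (0.52, 0.000917). The WT call was lost in 4 of the 6 fits that left out a library of that step (WT at 3 weeks, replicates 1 and 2, and at 4 weeks, replicates 1 and 3), with adjusted p up to 0.118. In chr4-2 the log2 fold change was 0.14 (adjusted p = 0.419), and 0.36 without replicate 1 at 4 weeks (0.0189).

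The methyltransferases SWN and CLF, paralogs that can serve the same position in PRC2, rose by mean log2 fold changes of 0.29 (SE 0.05, adjusted p = 2.85e-06) and 0.19 (SE 0.04, 0.000112). SWN had 57.5, 54.3 and 50.9 CPM at 3 weeks in the quintuple mutant and 68.0, 69.0 and 82.5 CPM at 4 weeks. In qem2 it had 59.1, 60.4 and 62.3 CPM and then 66.9, 83.4 and 81.9 CPM. SWN libraries of 4 weeks all lay above those of 3 weeks in WT, the quintuple mutant and qem2, and the weeks overlapped in chr4-2. The step of SWN was called in the quintuple mutant (log2 0.43, adjusted p = 0.000466) and qem2 (0.35, 0.00336), with 0.23 (0.0635) in WT and 0.14 (0.277) in chr4-2. CLF was called in the same pair, with log2 0.25 (0.00892) in the quintuple mutant and 0.24 (0.0145) in qem2. Its calls were lost without quintuple at 3 weeks, replicate 2, or at 4 weeks, replicate 2 or 3 (adjusted p up to 0.0863), and without qem2 at 3 weeks, replicate 2, or at 4 weeks, replicate 1 or 2 (up to 0.110). The CLF call in the quintuple mutant was also lost when only the libraries of that step were fitted (0.0956).

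The WD40 subunits moved the other way. FIE fell by 0.25 on the log2 scale (SE 0.05, adjusted p = 2.34e-05) and MSI1 fell by 0.20 (SE 0.05, 0.000517). FIE had 39.5, 39.0 and 43.5 CPM at 3 weeks in the quintuple mutant and 35.1, 32.2 and 31.1 CPM at 4 weeks. In qem2 it had 37.1, 37.2 and 36.2 CPM and then 31.2, 30.0 and 28.4 CPM, and in WT 38.9, 41.6 and 38.7 CPM and then 33.4, 32.4 and 36.4 CPM. In these 3 genotypes each 4-week library was below each 3-week library. MSI1 went from 100.7, 96.8 and 93.4 CPM to 86.6, 75.7 and 67.6 CPM in the quintuple mutant, where the weeks did not overlap. In WT it went from 93.4, 92.9 and 91.0 CPM to 83.4, 80.9 and 83.4 CPM, also without overlap, while in qem2 the weeks overlapped, with 87.3, 89.4 and 94.6 CPM and then 89.1, 72.1 and 66.1 CPM. In chr4-2 MSI1 read 110.6 CPM in replicate 1 at 4 weeks against 82.8 and 89.2 CPM in its partners, and the weeks overlapped.

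The falls were called in the quintuple mutant, with log2 fold changes of -0.31 for FIE (adjusted p = 0.00852) and -0.34 for MSI1 (0.00430), and in qem2, with -0.31 (0.0104) and -0.26 (0.0304). Neither was called in WT, with -0.22 for FIE (0.0768) and -0.16 for MSI1 (0.193), or in chr4-2, with -0.17 (0.176) and -0.03 (0.822). Whether the falls differ between genotypes was tested for quintuple minus WT alone, as given below. The FIE call in the quintuple mutant was lost without its replicate 3 at 3 or at 4 weeks (adjusted p up to 0.0509), and that of MSI1 without replicate 3 at 4 weeks (0.0524). In qem2 MSI1 lost its call without replicate 3 at 3 weeks or replicate 2 or 3 at 4 weeks (up to 0.154), and when only the libraries of that step were fitted (0.116).

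**Figure D2:**
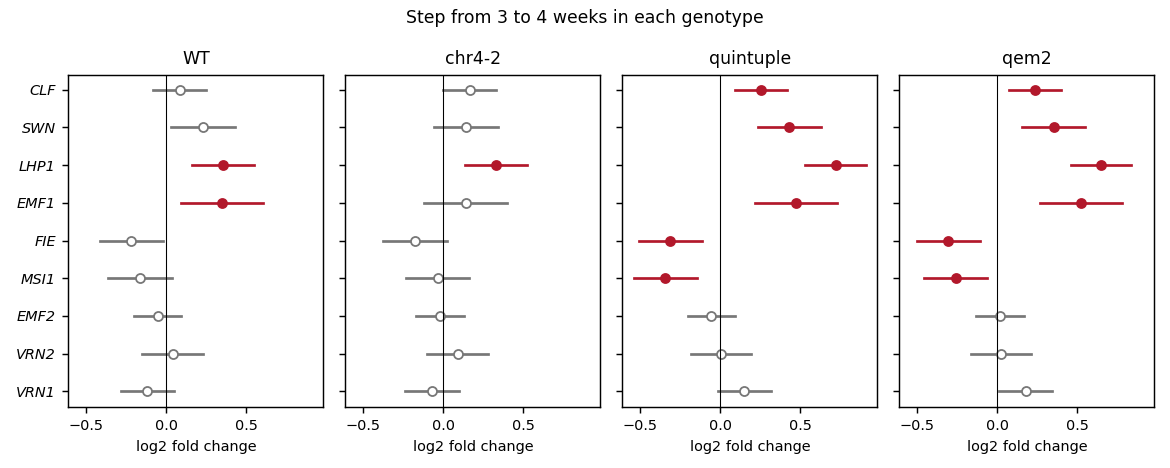
Log2 fold change from 3 to 4 weeks of 9 members in each genotype (points) with 95% intervals (bars); filled red points passed an adjusted p of 0.05 over 19566 genes. LHP1 rose in all 4 genotypes, and FIE and MSI1 fell in the quintuple mutant and qem2.

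Counted by genotype, the step raised 2 of 9 members in WT (34.9% of tested genes changed and 17.5% rose) and 1 in chr4-2 (29.9% and 14.5%). It raised 4 and lowered 2 in the quintuple mutant (45.4% changed, 23.8% rose and 21.6% fell) and did the same in qem2 (43.9%, 22.9% and 21%). In chr4-2 without its replicate 1 at 4 weeks 4 members were called, and in the quintuple mutant without its replicate 3 at 4 weeks 3 were. Unequal counts do not show that the step differed. The test of that difference, quintuple minus WT, called 0 of 9 members, with LHP1 at 0.37 (95% interval 0.10 to 0.64, adjusted p = 0.335) and VRN1 at 0.27 (0.04 to 0.50, 0.395), and edgeR called 0 of 19566 genes (0% of those tested). At an unadjusted p under 0.05 there were 2 members and 2127 genes, and DESeq2 called 7 genes, none of them a member. Without the mutant libraries numbered 1 at 4 weeks, edgeR called 291 genes and 0 members.

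Marker genes moved over the same step. All 10 mitotic markers fell from 3 to 4 weeks in the mean of the genotypes, by a median of -0.46 on the log2 scale, and their summed group means went from 637 to 755 CPM at 3 weeks to 493 to 567 CPM at 4 weeks. Of the 5 meristem markers 4 rose, with sums of 94.8 to 171 CPM at 3 weeks and 214 to 249 CPM at 4 weeks. Of the 5 mesophyll markers 3 fell, with sums of 4152 to 6622 CPM and then 3314 to 4301 CPM. Of the 7 vascular markers 3 rose in the mean of the genotypes, and the median log2 fold change over the 7 was -0.04. Their sums rose in WT (178 to 305 CPM), chr4-2 (179 to 284 CPM) and the quintuple mutant (202.5 to 228.7 CPM). In qem2 the sum fell from 242 to 189 CPM, with 0 markers called higher and 2 lower. The part of these changes in the steps of the members was not tested.

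EMF2, VRN2 and VRN1 passed the test in none of the 3 weekly steps averaged over genotypes. EMF2, the zinc-finger subunit that keeps seedlings from flowering at once, ranged from 54.9 to 66.7 CPM over the 47 libraries. VRN2, its paralog known from the memory of winter cold, ranged from 35.2 to 48.6 CPM, and VRN1, a B3 protein of the same cold response, from 36.3 to 51.3 CPM. Per kilobase of exon the ratio of EMF2 to VRN2 had group means of 1.02 to 1.17, and single libraries spanned 0.889 to 1.29. The ratio of CLF to SWN had group means from 1.03 in qem2 at 4 weeks to 1.26 in the quintuple mutant at 5 weeks, with single libraries from 0.925 to 1.36. Neither pair changed order in its group means.

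Later steps were smaller. From 4 to 5 weeks 3 of 9 members rose (33% of tested genes changed and 14.8% rose): CLF by log2 0.18 (SE 0.04, adjusted p = 0.000852), FIE by 0.15 (0.0191) and MSI1 by 0.14 (0.0268). This step shares its 4-week libraries with the step before. The call of FIE was lost in 6 of 23 fits without 1 library (adjusted p up to 0.0975) and that of MSI1 in 9 (up to 0.0912), and both were lost without quintuple at 4 weeks, replicate 3, qem2 at 4 weeks, replicate 3, chr4-2 at 5 weeks, replicate 2, or qem2 at 5 weeks, replicate 2. From 5 to 6 weeks 1 of 9 members changed (7.92% of tested genes, with 3.7% lower). CLF fell by 0.20 (SE 0.04, adjusted p = 0.00152). Its WT libraries read 78.8, 70.3 and 80.1 CPM at 5 weeks and 69.7, 74.5 and 74.4 CPM at 6 weeks, which overlap. Quintuple libraries read 87.9, 94.1 and 88.2 CPM and then 71.2, 77.8 and 76.8 CPM, without overlap. From 4 to 5 weeks all 7 vascular markers fell (median log2 -1.03, with sums of 189 to 305 CPM and then 89.4 to 111 CPM) and all 5 mesophyll markers fell (-0.74), and 1 of 10 mitotic and 1 of 5 meristem markers rose. From 5 to 6 weeks 4 vascular markers fell, and 5 mitotic and 1 meristem markers rose. The part of these changes in the steps of the members was not tested.

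Over the whole course, 6 against 3 weeks, LHP1 rose in every genotype. The log2 fold change was 0.33 in WT (SE 0.10, adjusted p = 0.00544), 0.56 in chr4-2 (SE 0.09, 1.07e-05), 0.45 in the quintuple mutant (SE 0.09, 0.000179) and 0.44 in qem2 (SE 0.10, 0.000492). Its 6-week values were 42.4, 38.2 and 36.9 CPM in WT and 46.9, 43.7 and 48.4 CPM in chr4-2, all above the 3-week values of their genotype. In the quintuple mutant they were 39.5, 43.5 and 46.4 CPM and in qem2 50.6, 49.4 and 44.3 CPM, again above every 3-week library. In WT, 2 of 9 members rose (38% of tested genes changed and 18.8% rose), the second being EMF1 with 0.33 (0.0356). In chr4-2, 4 members rose (45.9% and 22.9%), with EMF1 at 0.44 (0.00498), SWN at 0.26 (0.0258) and CLF at 0.25 (0.0123). For the quintuple mutant 2 rose (41.5% and 20.5%), with SWN at 0.30 (0.0113), and in qem2 LHP1 alone passed (35.5% and 18%).

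Single libraries decided several of these. Without WT at 6 weeks, replicate 1, no member was called in WT, with LHP1 at an adjusted p of 0.0510. The WT call of EMF1 was lost in 4 of 6 such fits (WT replicates 1 and 2 at either week, up to 0.151) and with DESeq2 (0.0502). FIE in WT, at -0.22 (0.0670), was called lower with RLE scaling (0.0473), with DESeq2 (0.0478) and with only the libraries of the step (0.0487). In chr4-2 CLF was lost without replicate 3 at 3 weeks (0.0540), and SWN without that library or without replicate 1 or 3 at 6 weeks (up to 0.156). SWN in the quintuple mutant was lost without replicate 3 at 3 weeks or replicate 2 at 6 weeks (up to 0.0593), and in qem2, without replicate 2 at 6 weeks, FIE was called lower (0.0216). With only the libraries of the step, chr4-2 kept 2 calls, since CLF (0.0635) and SWN (0.0912) passed no more. The change from 3 to 6 weeks was not called as different between genotypes for any member, in chr4-2 minus WT (0.133% of tested genes called), qem2 minus quintuple (0.107%) or quintuple minus WT (1.04%). No member had an unadjusted p under 0.05 in these 3 tests, where 1487, 1631 and 1900 genes did, and DESeq2 called 0 members. Markers moved over the same span. Of 7 vascular markers 5 fell in WT, 6 in chr4-2, 5 in the quintuple mutant and 6 in qem2 (median log2 -1.66, -1.53, -2.09 and -1.93), with sums of 178 to 242 CPM at 3 weeks and 60.0 to 67.5 CPM at 6 weeks. In the same order 3, 5, 4 and 3 of 5 mesophyll markers fell. Of 5 meristem markers 4, 4, 4 and 2 rose, and of 10 mitotic markers 6, 7, 3 and 0 fell. Their part in the changes of the members was not tested.

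Between genotypes, the quintuple mutant had more CLF and LHP1 transcript than WT. At 4 weeks 2 of 9 members were higher (12.4% of tested genes called and 7.52% higher). CLF had 71.8, 88.0 and 86.9 CPM in the quintuple mutant against 73.5, 69.0 and 62.6 CPM in WT, which overlap through replicate 1. LHP1 had 45.4 to 60.6 CPM against 37.5 to 41.1 CPM, without overlap. The log2 fold changes were 0.27 for CLF (SE 0.08, adjusted p = 0.0234) and 0.38 for LHP1 (SE 0.09, 0.00605). CLF lost the call without WT at 4 weeks, replicate 3, or quintuple at 4 weeks, replicate 2 or 3 (adjusted p up to 0.266), and LHP1 without quintuple at 4 weeks, replicate 3 (0.221). Both were lost when only the libraries of those 2 groups were fitted, with adjusted p of 0.231 and 0.145.

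Averaged over the 4 weeks the quintuple mutant was higher than WT in CLF by log2 0.16 (95% interval 0.08 to 0.24, adjusted p = 0.00283) and in LHP1 by 0.18 (0.08 to 0.27, 0.00537), that is by 11.9% and 13.0%. These 2 of 9 calls compare with 22.6% of all tested genes called and 11.3% called higher, and both were called in each of 31 alternative fits, the 24 without 1 library included. All 9 members had a fold change above 0, with a median of 0.09 against -0.003 over all tested genes. EMF1 stood at 0.16 (adjusted p = 0.0624) and VRN1 at 0.10 (0.0768), and both passed without the mutant libraries numbered 1 at 4 weeks (0.0230 and 0.0489). EMF1 also passed without WT at 3 weeks, replicate 3, or WT at 6 weeks, replicate 2. No member was called at 3 weeks (0.404% of tested genes), 5 weeks (6.86%) or 6 weeks (6.29%), with 0, 1 and 0 members at an unadjusted p under 0.05 and 0 by DESeq2. Without WT at 5 weeks, replicate 3, CLF was called at 5 weeks (0.0486).

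In the authors' deposited table of quintuple against WT, with 1 p-value per gene over all weeks, CLF had log2 fold changes of 0.09, 0.25, 0.27 and 0.05 from 3 to 6 weeks and an adjusted p of 0.0226. LHP1 had 0.01, 0.36, 0.16 and 0.13 with 0.0300 in the authors' deposited table. In it MSI1 had 0.07, -0.14, 0.25 and 0.05 with 0.0314, and the other members had adjusted p of 0.0611 or more. None of the 10 members was named in any of the authors' 12 deposited tables of listed genes. Those tables named 46 to 966 genes each, of 27206 in the count table. With so small a share of genes listed, the absence of 10 marks no member out.

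No member passed the threshold in chr4-2 or qem2 against its control. In chr4-2 against WT, 0 of 9 members were called at 3 weeks (0.818% of tested genes), 4 weeks (1.09%), 5 weeks (2.32%), 6 weeks (4.01%) or in the mean of the weeks (11.9%). In qem2 against quintuple it was 0 of 9 at 3 weeks (1.05%), 4 weeks (1.23%), 5 weeks (1.41%), 6 weeks (2.86%) and in the mean of the weeks (11.1%). DESeq2 also called 0 members in all 10 comparisons. At an unadjusted p under 0.05 edgeR had 1 member at 6 weeks in each pair, LHP1 in chr4-2 and FIE in qem2, and 2 in the mean of the weeks of qem2. In the mean of the weeks 4710 genes passed that unadjusted threshold for chr4-2 and 4897 for qem2. For chr4-2 the 95% intervals of the mean effect lay between -7.51% for EMF1 and 12.8% for MSI1 over the 9 members, and for qem2 between -15.5% for FIE and 17.8% for EMF1.

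Nearest to the threshold in qem2 were FIE, lower by log2 -0.14 (SE 0.05, adjusted p = 0.0633), and LHP1, higher by 0.12 (SE 0.05, 0.113). FIE group means in qem2 were below those of the quintuple mutant in every week, and LHP1 group means above, as the plot of levels by week shows. With the replicate number as a block within each week, added after seeing the data, both were called (0.0389 and 0.0278). FIE was called with all 48 columns (0.0378), but these put a copy of a quintuple library into qem2. That fit therefore cannot weigh a difference between qem2 and quintuple. FIE was also called without qem2 at 4 weeks, replicate 1, quintuple at 5 weeks, replicate 3, quintuple at 6 weeks, replicate 2, or qem2 at 6 weeks, replicate 2, and LHP1 without quintuple at 4 weeks, replicate 3, or qem2 at 4 weeks, replicate 1. Adjusted p over the 23 fits without 1 library ran from 0.0283 to 0.187 for FIE and from 0.0259 to 0.217 for LHP1. The test of the effect of qem2 in the quintuple background minus that of chr4-2 in WT called 0 members (0.475% of tested genes). The closest were FIE at -0.18 (95% interval -0.32 to -0.04, adjusted p = 0.394) and MSI1 at -0.16 (-0.30 to -0.02, 0.503), the 2 members with an unadjusted p under 0.05 among 1633 genes, and DESeq2 called 0 members.

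**Figure D3:**
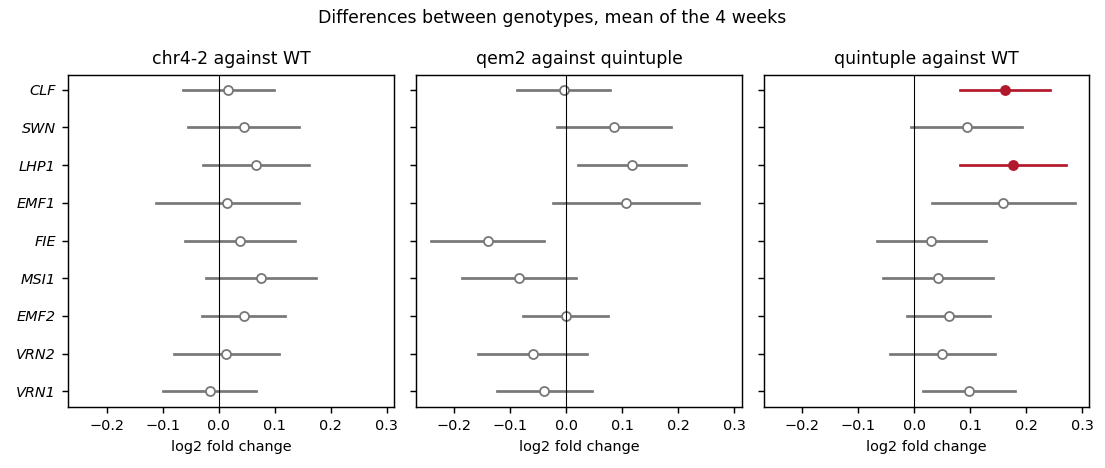
Log2 fold change in the mean of the 4 weeks for 9 members (points) with 95% intervals (bars) in 3 comparisons of genotypes; filled red points passed an adjusted p of 0.05. CLF and LHP1 were higher in the quintuple mutant than in WT, and no member passed in chr4-2 or qem2.

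VIN3, a PHD-finger protein known to be induced by long cold and to act with PRC2 on FLC, was almost absent. It had 116 reads in all 47 libraries, 0 in 9 of them and at most 17 in one. A count of 0 allowed up to 0.158 to 0.998 CPM in these libraries, at 3 reads. The reads came to 14 over the 12 libraries of 3 weeks, 14 over the 12 of 4 weeks, 43 over the 11 of 5 weeks and 45 over the 12 of 6 weeks. Pooled levels were 0.0860 CPM (95% Poisson interval 0.0470 to 0.144), 0.0824 (0.0451 to 0.138), 0.272 (0.197 to 0.366) and 0.286 CPM (0.209 to 0.383), where intervals cover counting error alone. At 6 weeks 17 of the 45 reads were in WT, replicate 3, and at 5 weeks 11 of 43 were in quintuple, replicate 2. VIN3 was too low for the filter and had no test in the fit reported. Fits that kept it called it higher at 5 than at 4 weeks in the mean of the genotypes, with log2 1.76 without the filter (edgeR, adjusted p = 0.0150) and 1.85 with DESeq2 (0.0186). It also passed the filter and that test when qem2 at 5 weeks, replicate 1 or 2, was left out (0.0171 and 0.0314). These fits called it in no other comparison. In the authors' deposited table VIN3 had a mean normalized count of 2.02 and an adjusted p of 0.673.

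**Figure D4:**
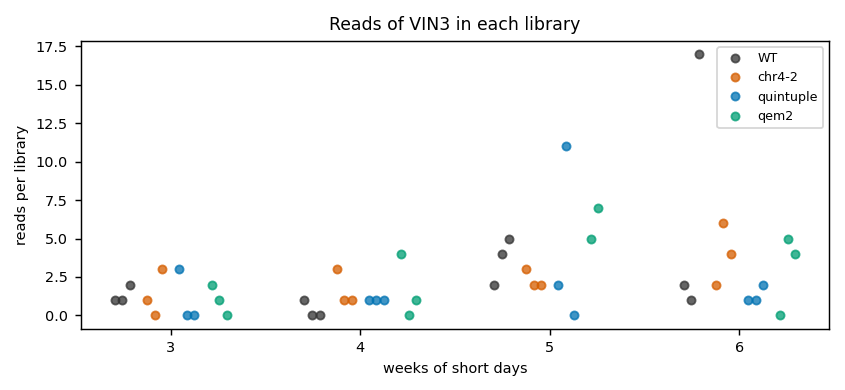
Reads of VIN3 in each of 47 libraries against weeks of short days, coloured by genotype. Libraries of 3 and 4 weeks held 0 to 4 reads, and those of 5 and 6 weeks reached 11 and 17 in 1 library each.

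Some members of different subunit types had like patterns over the 16 groups of genotype and week. Pearson's r of log2 CPM over the 16 group means was 0.98 between SWN and LHP1, 0.93 between SWN and EMF1, 0.92 between LHP1 and EMF1 and 0.87 between CLF and EMF1. FIE and MSI1 had 0.67 with each other and -0.68 and -0.60 with SWN. EMF2 had at most 0.32 with any other member. The 16 points share their weeks, scaling and library preparation, so these values describe the pattern only. The share of all gene pairs with such values was not counted, so they mark no pair of members out. Genes outside the list matched LHP1, CLF and EMF1 more closely than any member did, as given below.

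**Figure D5:**
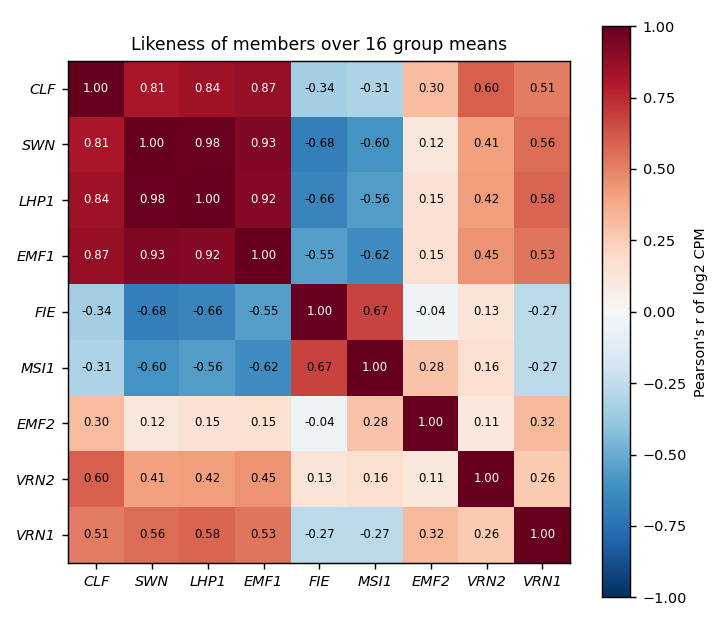
Pearson's r of log2 CPM between members over 16 group means (genotype and week), as colour and number. CLF, SWN, LHP1 and EMF1 form a block of 0.81 or more, and FIE and MSI1 have negative values with those 4.

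Among 17863 other genes with at least 1 CPM on average, those with patterns closest to LHP1 were CSLA07 (r = 0.990), AT3G11100 (0.981) and SCL14 (0.980), over the same 16 means. For SWN they were AREB3 (0.978), SGR2 (0.977) and SBP1 (0.976), for CLF AT4G36080 (0.964), AT3G52250 (0.949) and AT2G36720 (0.948), and for EMF1 AT1G18160 (0.969), AT4G30790 (0.967) and AT5G35200 (0.961). MSI1 was most like GTE7 (0.924), FIE like AT1G61730 (0.912), VRN1 like CYCA2;3 (0.892), VRN2 like TRM6 (0.881) and EMF2 like MYB30 (0.798). The 3 members with the least change, VRN1, VRN2 and EMF2, had the lowest of these values.

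Other genes of the pathway were followed in 2 further lists. Of 16 other PRC2 subunits and PRC2-bound proteins 12 were tested; MEA and FIS2, known from seeds, had 12 and 1 reads in all libraries. From 3 to 4 weeks 6 rose and 2 fell, where 66.9% of all tested genes changed, with a median log2 fold change of 0.10 against 0.03 over all tested genes. VEL1, a relative of VIN3, rose by 0.30 (adjusted p = 2.13e-06), ALP1 by 0.22 (0.000610) and TRB1 by 0.14 (0.00315), and FVE, a relative of MSI1, fell by 0.31 (3.37e-06). In the mean of the weeks none was called in chr4-2 (11.9% of tested genes called), and VRN5, another relative of VIN3, was lower in qem2 by -0.15 (0.0233), where 11.1% of tested genes were called. That call was lost in 6 of 23 fits without 1 library (up to 0.114). Between quintuple and WT, MSI3 (0.19, 0.00230), VEL1 (0.18, 0.00885) and MSI2 (0.16, 0.0379) were higher in the former, where 22.6% of tested genes were called. The call of MSI2 was lost in 12 of 24 such fits (up to 0.0868) and with RLE scaling (0.0527).

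The second list held 15 genes, PRC1 components, H3K27me3 readers and recruiters and genes tied to them, and 14 were tested. From 3 to 4 weeks 8 rose and 1 fell, with a median of 0.18, where 66.9% of all tested genes changed and 35.5% rose. ULT1 rose by 0.54 (adjusted p = 3.85e-09), the PRC1 RING-finger gene RING1B by 0.49 (2.60e-09) and LIF2, which binds LHP1, by 0.34 (1.42e-09). The deubiquitinase gene UBP12 fell by 0.32 (1.57e-09). What the listed genes do for silencing was not tested. ULT1 is not taken here as a PRC1 component, a reader or a recruiter. Its rise is therefore not read as a gain of Polycomb machinery. In the mean of the weeks 1 gene of the list was called in chr4-2 (11.9% of tested genes) and 1 in qem2 (11.1%). RING1A was higher in chr4-2 than in WT by 0.26 (0.00184), with group means of 25.2 to 29.3 CPM against 21.4 to 23.9 CPM. RING1B was higher in qem2 than in the quintuple mutant by 0.43 (9.77e-07), with 22.7 to 32.2 CPM against 14.8 to 24.8 CPM. Against WT, VAL3 (0.42, 4.88e-05), EBS (0.13, 0.0169) and BMI1A (0.16, 0.0341) were higher in the quintuple mutant, where 22.6% of tested genes were called. BMI1A lost its call in 12 of 24 fits without 1 library (up to 0.106), without the filter (0.0526) and with DESeq2 (0.0524).

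Of 24 genes known as Polycomb targets 15 were tested, and the floral genes AG, SEP2, SEP3 and STK had 2 to 42 reads each in all libraries. From 3 to 4 weeks 7 rose and 1 fell, where 66.9% of tested genes changed, with a median of 0.97 against 0.03 over all tested genes. The KNOX genes STM (1.03, adjusted p = 6.35e-14), KNAT2 (1.09, 9.34e-14) and KNAT6 (1.06, 7.92e-11) and the MADS-box gene AGL19 (1.30, 3.54e-13) rose most surely. STM, KNAT1 and WUS stand both in this list and among the meristem markers above, so the lists are not independent. In the mean of the weeks 3 targets were higher and 2 lower in chr4-2 than in WT (11.9% of tested genes called). Among them were STM (0.37, 0.000640), KNAT6 (0.37, 0.0146), WUS (0.92, 0.0446) and the flowering repressor FLC (-1.13, 0.000928). FLC group means were lower in chr4-2 at 5 and 6 weeks only. They were 16.9, 21.2, 5.18 and 0.247 CPM from 3 to 6 weeks, against 15.2, 19.5, 10.9 and 3.48 CPM in WT. At 6 weeks the chr4-2 group held 10 FLC reads. The call of WUS was lost in 15 of 24 fits without 1 library (up to 0.213), with the replicate block (0.0525), with a block within each week (0.0688), without the filter (0.0556) and without the mutant libraries numbered 1 at 4 weeks (0.0906). In qem2 MAF5, a relative of FLC (1.52, 3.37e-08), and STM (0.27, 0.0175, lost in 1 of 23 fits without 1 library, at 0.0755) were higher (11.1% of tested genes called). The lower one was FLC (-1.54, 1.09e-05), which the quintuple mutant carries as a mutant allele. Against WT the quintuple mutant had 6 higher and 2 lower (22.6% of tested genes called). They were led by AGL19 (1.04, 4.50e-10), MAF5 (-1.03, 3.76e-05), KNAT2 (0.41, 0.000235) and the floral gene PI (3.87, 0.00172). The call of PI was lost in 1 of 24 such fits, without quintuple at 3 weeks, replicate 2. PI is 1 of the flower organ markers, whose sums of 0.693 to 7.53 CPM put it near the floor.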

How the data were processed

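RNA of shoot apices was counted per gene in 48 columns, of which 47 were used. The deposited counts are whole numbers of reads per gene, per the file headers. TopHat2, SAMtools, HTSeq, DESeq2 and the TAIR10 build are listed without versions, per the submitters' processing notes. Whether counting used strand is not given in the sources used here. Genes on the other strand overlap CLF, FIE, MSI1, LHP1 and VIN3, and reads there may have been left out or given to the wrong gene. The authors' deposited tables hold a mean signal (mean normalized count), p-value columns and log2 fold changes, and were used as given.

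edgeR 4.0.16 in R 4.3.3 fitted 16 groups at once after TMM scaling and filterByExpr (glmQLFit robust, glmQLFTest), and genes were called at a Benjamini-Hochberg adjusted p under 0.05 over 19566 genes. Library sizes and PCR limit the precision, and Poisson intervals cover counting error alone. Alternatives were RLE scaling, no filter, DESeq2 1.42.0, a replicate block, all 48 columns, the compared libraries alone and leaving out each library in turn. A block within each week and leaving out the mutant libraries numbered 1 at 4 weeks were chosen after seeing the data.

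The members and lists were chosen with earlier results of these data known. All called members are named, of each list up to 4 called genes of smallest adjusted p, and up to 3 genes most like a member in pattern. Same-numbered libraries deviated together in every pair, with correlations over 0.1, in chr4-2 and WT at 4 and 5 weeks, qem2 and quintuple at 3 and 4 weeks and quintuple and WT at 5 weeks, and in both pairs (0.101 and 0.167) of qem2 and quintuple at 5 weeks, where 3 pairs would be needed, and not in the other comparisons. The labels state no pairing. Sequences and gene models came from RefSeq TAIR10.1, which matched all 10 members by locus.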

Additional observations from a re-analysis of the deposited data

Results flagged for a closer look

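The tests of differences between effects called no member of the complex, and groups of 2 or 3 libraries were not tested for a library that stands apart. In the related lists such a test called 4 genes. For RING1B the effect of qem2 in the quintuple background exceeded that of chr4-2 in WT by log2 0.38 (SE 0.08, adjusted p = 0.0123 by edgeR), and it was called in each of 54 fits (0.00695 to 0.0253 over the 47 without 1 library). For MAF5 the same difference was 1.14 (SE 0.24, 0.0123), and it was not called with all 48 columns (0.0757). That fit repeats a quintuple library in qem2, so it cannot weigh this difference. The change of FLC from 3 to 6 weeks was more negative in chr4-2 than in WT by -3.90 (SE 0.78, 0.0211). That call was lost in 7 of 12 fits without 1 library (up to 0.127) and with all 48 columns (0.0848). At 6 weeks the chr4-2 group held 10 FLC reads, with a mean of 0.247 CPM. The change of MAF4 was more negative in qem2 than in the quintuple mutant by -3.59 (SE 0.57, 0.00124), called in all 17 fits made.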

How the results depend on the processing

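Of 560 counts of called members recomputed under another setting or without a library, 529 stayed within 1.5 times the count reported. These include comparisons with 0 members called in the fit reported and in nearly all others, as in chr4-2 against WT. The 529 is thus no measure of how firm the calls are. No member that was called changed sign. No filter, DESeq2 and leaving out qem2 at 5 weeks, replicate 1, kept VIN3 and gave 4 members in place of 3 from 4 to 5 weeks. Without replicate 2 of that group VIN3 was called too, but FIE and MSI1 were not. Of 38 member results called, 22 were called under every alternative run, among them all 6 of the mean step from 3 to 4 weeks and CLF and LHP1 in the mean of the weeks of quintuple against WT. The replicate block left every member count as it was, with 2 for quintuple against WT at 4 weeks and 6 for the mean step from 3 to 4 weeks. A block within each week gave 2 members for qem2 against quintuple in the mean of the weeks, where 0 were reported. All 48 columns gave 1, with a quintuple library repeated in qem2, so that count cannot weigh the comparison. With only the compared libraries fitted, 0 members were called for quintuple against WT at 4 weeks, 2 for 6 against 3 weeks in chr4-2 and 0 for its step from 3 to 4 weeks. Without the mutant libraries numbered 1 at 4 weeks, 4 were called for quintuple against WT in the mean of the weeks and 2 for the step from 3 to 4 weeks in chr4-2. The causes were not tested. Leaving out single libraries gave 0 to 2 members for qem2 against quintuple in the mean of the weeks, 0 to 2 for quintuple against WT at 4 weeks, 0 to 1 at 5 weeks and 2 to 3 in the mean of the weeks. For 6 against 3 weeks it gave 0 to 2 in WT, 2 to 4 in chr4-2, 1 to 2 in the quintuple mutant and 1 to 2 in qem2. For the step from 3 to 4 weeks it gave 1 to 2 in WT, 0 to 4 in chr4-2, 3 to 6 in the quintuple mutant and 4 to 6 in qem2, and 1 to 4 for the mean step from 4 to 5 weeks. All-gene counts moved more. With only the compared libraries, quintuple against WT called 285 genes at 4 weeks (2417 reported) and 186 at 5 weeks (1342), and qem2 against quintuple 1072 at 3 weeks (206). DESeq2 called 51, 47 and 309 genes for the change from 3 to 6 weeks (26, 21 and 204 reported) and 150 for the effect of qem2 minus that of chr4-2 (93). Depth limits VIN3 most, and SEs of the other members within a week were 0.07 to 0.14 on the log2 scale.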
